A study of Mus musculus with 2 samples.

Results

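The retinoid handling genes described here are 8 genes that mouse cells use to cleave, bind, esterify, oxidise or reduce vitamin A compounds: Bco1, Rbp2, Crabp2, Lrat, Retsat, Dhrs3, Rdh7 and Aldh1a1. They were chosen by symbol, and all 8 were found among the 19294 genes of the deposited count table. Their mRNA was counted in mouse intestinal organoids, spheres of gut epithelium with budding crypts that grow from stem cells in culture. The organoids came from jejunal crypts of Lgr5-EGFP-IRES-creERT2 mice, in which a knock-in allele marks Lgr5-expressing stem cells with a green fluorescent protein, and grew in Matrigel with EGF, Noggin and R-spondin. The control group was 1 untreated library at day 4. The DSS group was 1 library from organoids given dextran sulfate sodium, a sulfated sugar polymer that injures gut epithelium, for 4 days. Both groups carried the same allele. The strain background, age and number of mice, the number of wells behind each library and the DSS concentration used for sequencing are not given in the sources used here. With 1 library per group there is no replicate error and no test, and a difference between the libraries cannot be told apart from a difference between any pair of cultures.

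Totals were 65493032 counts for control and 59746968 for DSS. Counts were divided by TMM-scaled library sizes (factors of 1.09 and 0.915) and are given as scaled CPM, a gene's count as a rate of its scaled library size. Each log2 ratio sets DSS over control. Its 95% interval is exact (Clopper-Pearson) and covers counting error only. The labels call the cells intestinal stem cells. The stem cell markers Lgr5 (18849 counts in control, 1048 with DSS) and Olfm4 (13109 and 13) were present in the control library beside 15 of 15 enterocyte markers, so RNA of mature epithelium was counted too. A lower or higher level in such a bulk library cannot separate a change in the number of cells of a type from a change in RNA per cell.

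Vitamin A reaches the jejunum as plant carotenoids and as retinyl esters from animal food. BCO1 cuts β-carotene into retinal inside the enterocyte, RBP2 holds retinal and retinol in the cytoplasm, and LRAT joins retinol to a fatty acid so that the ester can leave in chylomicrons. A smaller share is oxidised: retinol dehydrogenases such as RDH7 make retinal, DHRS3 turns retinal back into retinol, and ALDH1A1 oxidises retinal to retinoic acid, which CRABP2 carries toward nuclear receptors. RETSAT adds hydrogen to retinol and gives dihydroretinol. Retinoic acid from the gut epithelium is known to act on immune cells of the intestinal wall.

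The promoters of Bco1, Rbp2 and Aldh1a1 are shown because these 3 genes had the highest DSS over control ratios of the 8. The windows hold the 250 bases before the RefSeq transcription start on GRCm38.p6, read 5′ to 3′ on the gene's strand, and 7 of the 8 genes had such a window. Crabp2 was the other. Dhrs3 had 3 windows, and Rdh7 and Aldh1a1 had 2 each. For these, only the window nearest the start of the main GENCODE transcript was searched. The Aldh1a1 window lies inside the GENCODE span of the gene, which begins further upstream at 20492715. The windows are chr8:117095615-117095864 (plus strand) for Bco1, chr9:98490287-98490536 (plus strand) for Rbp2 and chr19:20601718-20601967 (plus strand) for Aldh1a1. Capitals mark exact matches, on either strand, to short strings that transcription factors are known to prefer. AGGTCA is a half-site of nuclear receptors. TTTATG is a preferred string of CDX proteins, and AGATAA one of GATA proteins. The core promoter strings searched were the TATA box (TATAAA) and the CCAAT box. In Rbp2 the AGATAA and TATAAA matches share a base.
Bco1: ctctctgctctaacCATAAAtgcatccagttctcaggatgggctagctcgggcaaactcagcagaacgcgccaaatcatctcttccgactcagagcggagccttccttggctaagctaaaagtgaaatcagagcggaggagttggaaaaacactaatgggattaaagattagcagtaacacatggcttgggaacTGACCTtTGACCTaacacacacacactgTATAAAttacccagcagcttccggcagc
Rbp2: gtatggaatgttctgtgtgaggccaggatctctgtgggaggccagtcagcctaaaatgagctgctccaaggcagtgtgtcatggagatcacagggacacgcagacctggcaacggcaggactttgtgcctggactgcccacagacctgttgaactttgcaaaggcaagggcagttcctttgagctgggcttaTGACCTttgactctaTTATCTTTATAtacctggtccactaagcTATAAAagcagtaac
Aldh1a1: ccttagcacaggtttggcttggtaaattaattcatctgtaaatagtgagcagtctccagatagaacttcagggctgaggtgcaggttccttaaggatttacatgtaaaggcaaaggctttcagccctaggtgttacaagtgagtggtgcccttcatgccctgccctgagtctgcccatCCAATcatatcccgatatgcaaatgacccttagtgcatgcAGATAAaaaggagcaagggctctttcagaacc

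AGGTCA or its reverse complement TGACCT was found in 14.0% of 32817 distinct mouse promoter windows of this length. It occurred 2 times in the Bco1 window, starting 56 and 49 bases before the start, and 1 time in the Rbp2 window, 58 bases before the start. The pair in Bco1 forms a direct repeat with 1 base between the copies, TGACCTtTGACCT, an arrangement known to bind RXR heterodimers and HNF4 in general. That arrangement was present in 11 windows, or 0.0335%. Of the 11 genes, 7 had at least 10 counts in a library. Apart from Bco1, whose window is shown because of its ratio, 1 of these was at a log2 ratio of 2 or more, against 7.87% of all genes with that many counts. It was Apol7c, with 2 counts in control and 28 with DSS, named after its values were seen. Repeats spaced by 2 or by 5 bases were in 3 windows each (0.00914%) and in no window of the 7 genes. TATAAA, present in 12.4% of windows, was found in Bco1, Rbp2 and Retsat. AGATAA (9.99% of windows) was found in Rbp2 and Aldh1a1, and TTTATG (10.8%) in Bco1. CCAAT (33.8%) was found in Lrat, Dhrs3 and Aldh1a1, and GTTAAT (6.44%), an HNF1 half-site, in Dhrs3. CAAAGTCCA, an HNF4 core (0.384%), was in none of the 7 windows, and the Rdh7 window searched held none of these strings. A match is a string of letters and not a measured site.

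All 8 retinoid handling genes had a higher scaled level in the DSS library than in the control, and for 7 of them the counting interval lay above 0. Bco1, Aldh1a1, Rbp2 and Rdh7 were past a log2 ratio of 2, which is 4 of 8 genes, and none was at -2 or less. Of 17235 genes that reached 10 counts in a library, 7.87% had a ratio of 2 or more, 6.54% one of -2 or less, and 48.0% one above 0. The median log2 ratio of the 8 genes was 2.27, against -0.06 over all these genes. Together the 8 genes took 20059 counts in control (0.0306% of the library) and 129335 with DSS (0.216%), or 280.3 and 2366 scaled CPM.

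**Figure D1:**
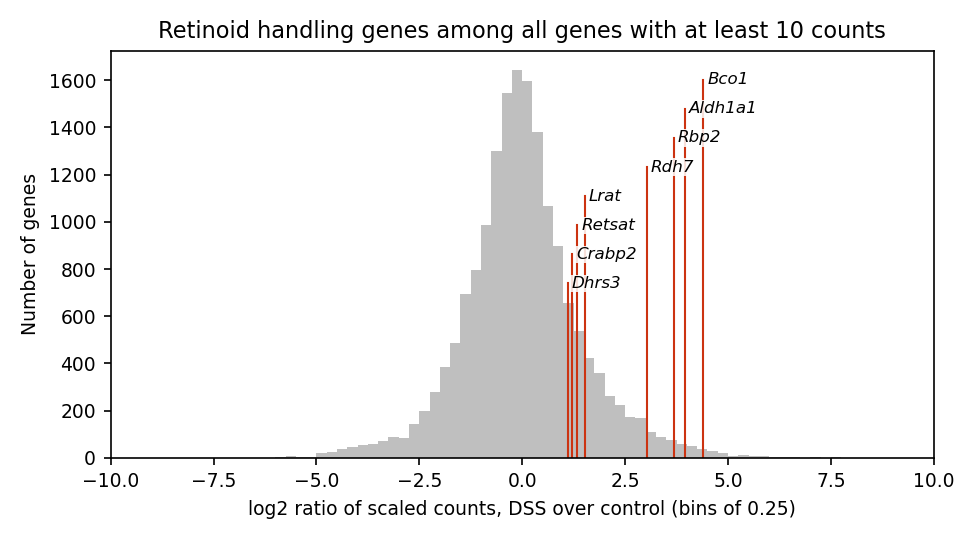
Histogram of the log2 ratio (DSS over control) of 17235 genes with at least 10 counts in a library, in bins of 0.25, with a red line at each retinoid handling gene; line heights only separate the names. Dhrs3, Crabp2, Retsat and Lrat lie at the right shoulder between 1.10 and 1.51, and Rdh7, Rbp2, Aldh1a1 and Bco1 lie in the right tail between 3.02 and 4.39.

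Bco1 encodes β-carotene oxygenase, the enzyme that starts vitamin A formation from plant carotenoids. It had 348 counts in control and 5583 with DSS, or 4.86 and 102 scaled CPM. The log2 ratio was 4.39 (interval 4.24 to 4.55), a 21.0-fold higher level, and 122 of the 17235 genes (0.708%) had a higher ratio. This was the highest ratio of the 8 genes, from a low control level. Bco1 (NCBI gene 63857) lies on chromosome 8 from 117095854 to 117133720 on the plus strand (GRCm38, GENCODE vM21), in 12 exon blocks.

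Rbp2 encodes the cellular retinol binding protein of the absorptive enterocyte. It had 1698 counts in control and 16611 with DSS (23.7 and 304 scaled CPM). The log2 ratio was 3.68 (3.61 to 3.75), or 12.8-fold, and 1.61% of genes had a higher ratio. Rbp2 (NCBI gene 19660) lies on chromosome 9 from 98486115 to 98509781 on the plus strand. Crabp2, the carrier of retinoic acid toward its receptors, was close to absent from both libraries. It had 9 counts in control and 16 with DSS (0.126 and 0.293 scaled CPM), and its log2 ratio of 1.22 had an interval of -0.05 to 2.58. A difference in Crabp2 (NCBI gene 12904; chromosome 3, 87948666 to 87953376, plus strand) was not detectable at this depth.

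Lrat encodes the acyltransferase that makes retinyl esters from RBP2-bound retinol. It had 658 counts in control and 1436 with DSS (9.19 and 26.3 scaled CPM), a log2 ratio of 1.51 (1.38 to 1.65) or 2.86-fold. The level was higher with DSS, and 12.3% of genes had a higher ratio. Lrat (NCBI gene 79235) lies on chromosome 3 from 82892579 to 82903973 on the minus strand.

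Retsat encodes retinol saturase. It had 6228 counts in control, close to the 6309 of Aldh1a1 in the same library, and 12006 with DSS (87.0 and 219.6 scaled CPM). The log2 ratio was 1.34 (1.29 to 1.38), or 2.52-fold, and 14.4% of genes had a higher ratio. Retsat (NCBI gene 67442) lies on chromosome 6 from 72598475 to 72608425 on the plus strand. GENCODE places Gm45053 on the other strand of the same stretch, and how the counting treated strand is not given in the sources used here. Reads of the 2 genes may therefore not have been told apart, although the library kit keeps strand.

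Dhrs3 encodes a reductase that returns retinal to retinol and so lowers the supply of retinoic acid. It had 2388 counts in control and 3914 with DSS (33.4 and 71.6 scaled CPM). Its log2 ratio of 1.10 (1.03 to 1.18), or 2.15-fold, was the lowest point value of the 8 genes, though the wide interval of Crabp2 spans it, and 17.5% of genes had a higher ratio. Dhrs3 (NCBI gene 20148) lies on chromosome 4 from 144892827 to 144928209 on the plus strand.

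Rdh7 encodes a microsomal short-chain dehydrogenase that oxidises retinol to retinal. It had 2421 counts in control, near the count of Dhrs3, and 15032 with DSS (33.8 and 275 scaled CPM). The log2 ratio was 3.02 (2.96 to 3.09), or 8.13-fold, and 517 of the 17235 genes had a higher ratio. Rdh7 (NCBI gene 54150; chromosome 10, 127884028 to 127888817, minus strand) belongs to a family of near copies, and its count is therefore uncertain. Of the 1629 distinct 50-base words of its transcript, 215 (13.2%) also occur in transcripts of other genes, chiefly Rdh18-ps (183 words), Rdh1 (160) and Rdh16f1 (121). The 5 named paralogs listed in the table, Rdh1, Rdh9, Rdh16, Rdh16f2 and Rdh19, held only 208 counts in control and 1953 with DSS. Rdh7 summed with them had a log2 ratio of 3.08 (3.02 to 3.14), and with all 7 listed genes that share words, 3.09 (3.03 to 3.14). Both sums were within 0.1 of the ratio of Rdh7 alone.

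Aldh1a1 encodes retinaldehyde dehydrogenase 1, which makes retinoic acid and also clears other aldehydes. It was the most abundant of the 8 genes in the DSS library, with 6309 counts in control and 74737 with DSS (88.2 and 1367 scaled CPM). By count it moved from rank 2120 to rank 79 among all listed genes. The log2 ratio was 3.95 (3.92 to 3.99), or 15.5-fold, and 1.20% of genes had a higher ratio. Aldh1a1 (NCBI gene 11668; chromosome 19, 20492715 to 20643465, plus strand) shares 7.53% of its 50-base words (151 of 2004) with Aldh1a7, a neighbouring copy. Aldh1a7 had 3569 counts in control and 18193 with DSS, a log2 ratio of 2.74 (2.69 to 2.79), and the sum of the pair had 3.62 (3.59 to 3.65). The other retinaldehyde dehydrogenase listed, Aldh1a3, had 5 counts in control and 4 with DSS. Aldh1a2 and Aldh8a1 were not analysed here.

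Levels of different genes were compared per kilobase of exon, as scaled CPM per kb. In the control library the order was Aldh1a1 (36.8), Rbp2 (29.1), Retsat (28.7), Rdh7 (20.2), Dhrs3 (13.8), Bco1 (1.91), Lrat (1.72) and Crabp2 (0.135). Rbp2 and Retsat did not differ beyond their counting intervals, nor did Bco1 and Lrat. In the DSS library the order was Aldh1a1 (571), Rbp2 (373), Rdh7 (164), Retsat (72.5), Bco1 (40.2), Dhrs3 (29.6), Lrat (4.91) and Crabp2 (0.314), and no neighbouring intervals overlapped. Bco1 thus stood below Dhrs3 in control and above it with DSS, and Rdh7 changed places with Retsat.

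**Figure D2:**
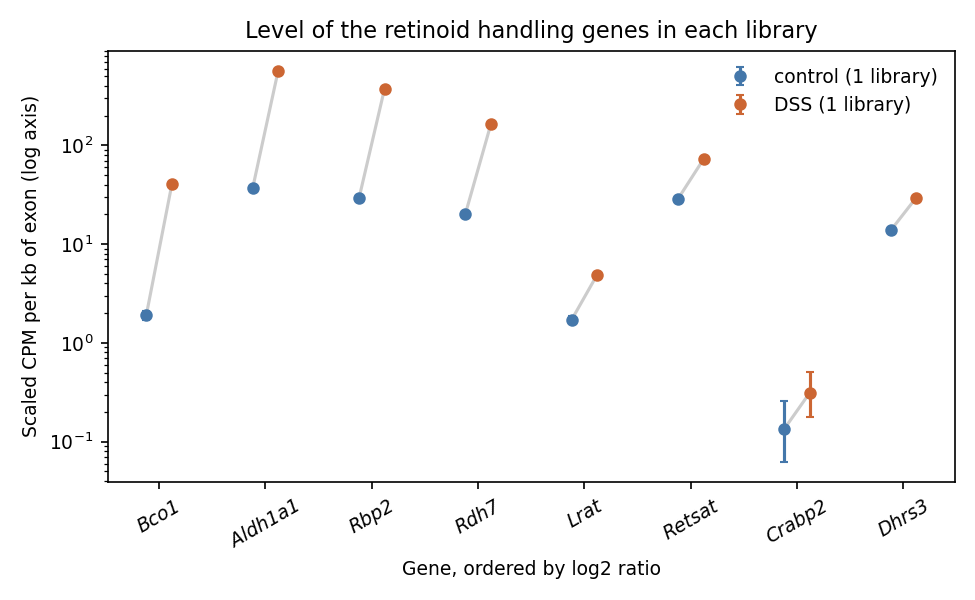
Level of each retinoid handling gene in the control library (blue) and the DSS library (orange), in scaled CPM per kb of exon on a log axis, with 95% counting intervals that are smaller than the points for most genes and grey lines joining the libraries. Bco1 goes from 1.91 to 40.2 and Aldh1a1 from 36.8 to 571, while the Crabp2 intervals overlap.

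The composition of the retinoid handling mRNA also differed. Aldh1a1 held 31.5% of the counts of the 8 genes in control and 57.8% with DSS. Retsat, the other large share in control, went from 31.0% to 9.28%. Dhrs3 went from 11.9% to 3.03%, Rbp2 from 8.47% to 12.8% and Bco1 from 1.73% to 4.32%. Rdh7 kept a near equal share (12.1% and 11.6%).

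Quotients of counts within a library do not depend on how the libraries were scaled, and their 95% intervals, from the 4 counts on the log scale, cover counting error only. These pairs were chosen after the values were seen. Aldh1a1, which consumes retinal toward retinoic acid, had 2.64 counts per count of Dhrs3, which consumes it toward retinol, in control and 19.1 with DSS, a 7.23-fold difference (6.83 to 7.65). Rdh7, which makes retinal, went from 1.01 to 3.84 counts per count of Dhrs3 (3.79-fold, 3.54 to 4.05). Rbp2 went from 2.58 to 11.6 counts per count of Lrat, its partner in ester formation (4.48-fold, 4.04 to 4.98). Bco1 went from 0.265 to 1.15 counts per count of Bco2, the mitochondrial enzyme that cuts carotenoids off centre (4.35-fold, 3.84 to 4.93). All of these differences exceeded counting error, and no culture-to-culture error is known for them.

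Markers of several epithelial cell types differed between the libraries in the same direction as the retinoid handling genes. Over all 17235 genes with at least 10 counts, 48.0% were above 0 and 7.87% at a log2 ratio of 2 or more. Of 15 enterocyte markers, 15 were above 0 and 12 at 2 or more. Their median was 2.82, with a range from 1.24 (Anpep) to 5.27 (Apoa1). Their summed level was 3320 scaled CPM in control and 27429 with DSS. All 5 goblet cell markers were at 2 or more (summed level 703 and 11136 scaled CPM), and all 4 enteroendocrine markers were above 0 (763 and 3813). All 4 stem cell markers were below 0 (702 and 124), as were all 4 Paneth cell markers (494 and 241) and all 4 tuft cell markers (7.08 and 2.62). The paper's RT-PCR of DSS-treated organoids also found lower Lgr5 and Lyz. It found Vil1, the paper's enterocyte marker, little changed, as well as Muc2 and Chga. The log2 ratios of Muc2 and Chga here were 4.98 and 2.60. Vil1 was not among the 15 enterocyte markers used here. Of 8 mesenchymal markers 4 were listed, with a sum of 2.07 and 2.14 scaled CPM, and of 8 immune markers 3 were listed, with 12.2 and 23.3. The other 5 immune markers, among them the pan-leukocyte marker Ptprc, were not analysed here. The part of these cell type differences in the ratios of the 8 genes was not tested.

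Beside the enterocyte markers, 4 of the retinoid handling genes lay above the marker median and 4 below it. Bco1 lay 1.57 above the enterocyte median on the log2 scale, Aldh1a1 1.13 above, Rbp2 0.86 above and Rdh7 0.20 above. Lrat, Retsat, Crabp2 and Dhrs3 lay at -1.31, -1.49, -1.60 and -1.72 from that median. Only 3 of the 15 markers had a higher ratio than Bco1, whereas 14 had a higher ratio than Lrat or Retsat, and 15 a higher ratio than Dhrs3 or Crabp2.

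**Figure D3:**
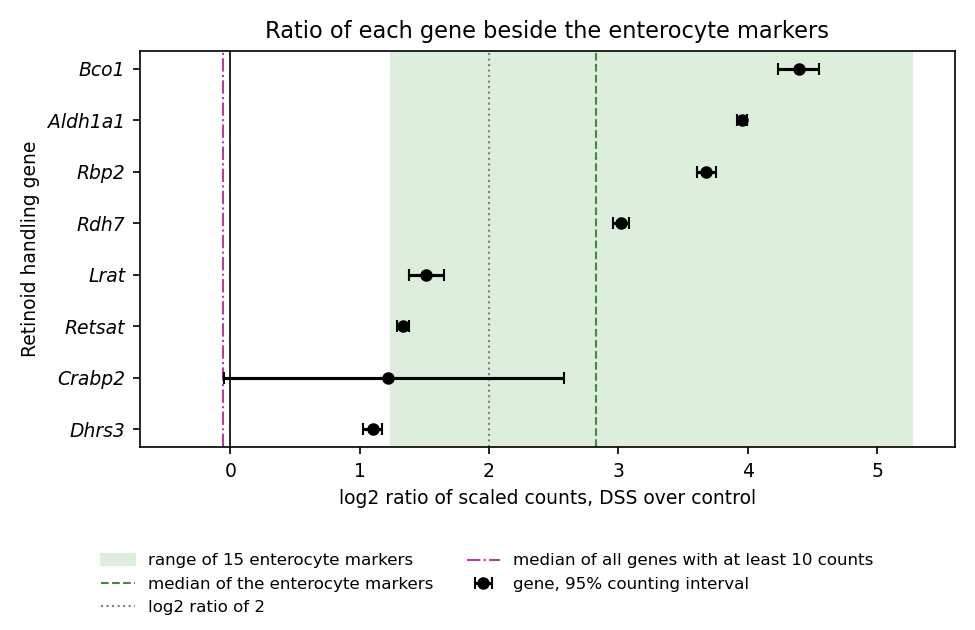
Log2 ratio (DSS over control) of each retinoid handling gene with its 95% counting interval, beside the range (green band, 1.24 to 5.27) and median (dashed line, 2.82) of 15 enterocyte markers, the line of 2 and the median of all genes with at least 10 counts (-0.06). Bco1, Aldh1a1, Rbp2 and Rdh7 lie to the right of the enterocyte median, and Dhrs3 lies to the left of the whole band.

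Set against a single marker, the values depend on which marker is taken, since such a quotient restates the ratio of the gene less that of the marker. For Alpi, the brush border alkaline phosphatase with a log2 ratio of 3.94, only Bco1 of the 8 genes had a higher quotient with DSS beyond counting error. Bco1 went from 0.0538 to 0.0738 counts per count of Alpi (1.37-fold, 1.23 to 1.53). Aldh1a1 had 0.975 and 0.988 (1.01-fold, interval 0.978 to 1.05), so that it and Alpi did not differ beyond counting error. The other 6 genes had lower quotients with DSS. Rbp2 went from 0.262 to 0.220 counts per count of Alpi (0.837-fold, 0.792 to 0.885), and Rdh7 from 0.374 to 0.199 (0.531-fold, 0.506 to 0.559). For Lrat, Retsat, Crabp2 and Dhrs3 the quotient was between 0.140-fold (Dhrs3) and 0.187-fold (Lrat), although the scaled levels of Lrat, Retsat and Dhrs3 were higher with DSS beyond counting error.

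A wider list of 62 retinoid genes, without the 8, placed them in their pathway. Of these, 48 were listed and 47 had at least 10 counts in a library, and the other 14 were not analysed here. The median log2 ratio of the 47 was 1.29, and 35 were above 0 and 12 below. A ratio of 2 or more was seen for 16 and one of -2 or less for 2, Stra6l and Awat2. Over all 17235 genes with at least 10 counts, 48.0% were above 0, 7.87% at 2 or more and 6.54% at -2 or less. Of the 16, Rdh12, Rdh16 and Rdh19 had fewer than 10 counts in control, and Awat2 had 7 counts with DSS. Of the 47, the counting interval lay above 0 for 32 genes and below 0 for 9. The direction differed by role, and the median of each role kept its sign under library totals, upper quartile factors and DESeq2 size factors. Plb1 and Fabp5 lay below 0 with library totals, and Rdh14 lay above 0 with upper quartile factors.

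**Figure D4:**
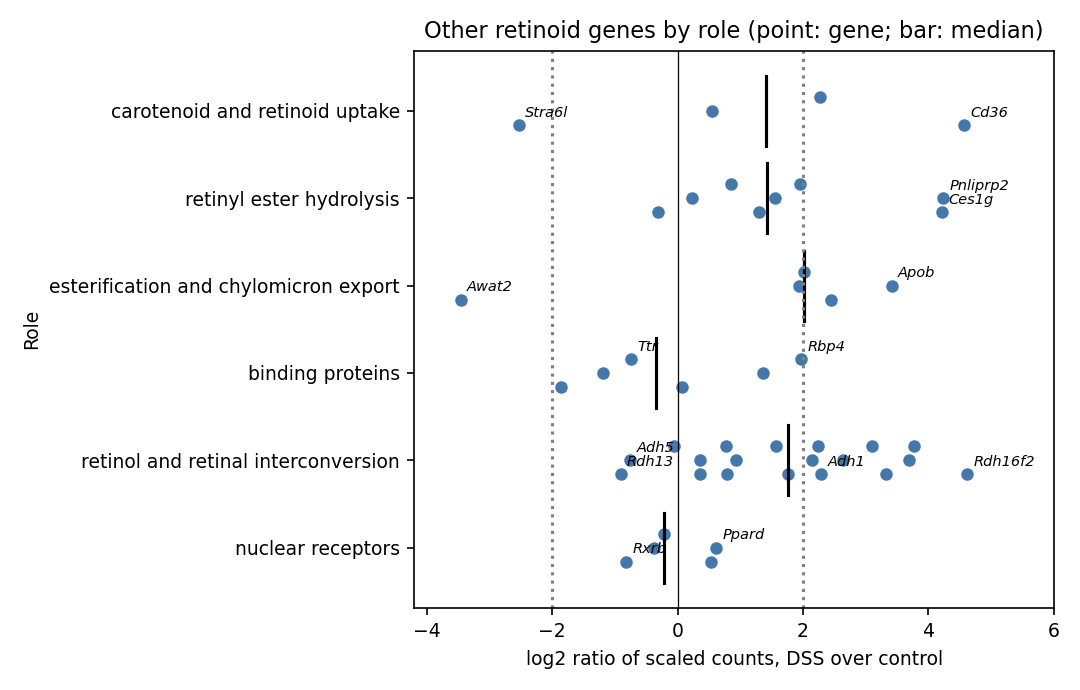
Log2 ratio (DSS over control) of 47 further retinoid genes with at least 10 counts in a library, 1 point per gene, grouped by role, with a black bar at the median of each role and dotted lines at 2 and -2. The medians of uptake (1.41), ester hydrolysis (1.42), esterification and export (2.01) and interconversion (1.75) lie above 0, and those of binding proteins (-0.34) and nuclear receptors (-0.22) lie below.

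For uptake and cleavage, 4 of 6 genes were listed. Cd36, a scavenger receptor for lipids and carotenoids, had 214 counts in control and 3876 with DSS, a log2 ratio of 4.57 (4.37 to 4.77). Bco2 had 1313 and 4842 counts (2.27, 2.18 to 2.36). Scarb1, the carotenoid receptor of the brush border, had 9560 and 10653 counts and a ratio of 0.54 (0.50 to 0.58), far below Bco1. Stra6l, a retinol transporter that takes up RBP4-bound retinol, had 3002 and 395 counts, a ratio of -2.54 (-2.69 to -2.39). Isx, the homeobox repressor of Bco1 and Scarb1, and Stra6 were not analysed here.

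Genes of ester hydrolysis and of fat export were mostly higher with DSS. Of 8 listed hydrolases 7 were above 0, led by Pnliprp2, a pancreatic lipase related protein, with 4146 and 59824 counts (4.24, 4.19 to 4.29). The carboxylesterase Ces1g had 1280 and 18217 counts (4.22, 4.14 to 4.30), whereas Ces1f and Ces1d, with more counts in control, had ratios of 1.96 and 1.55. The Ces1 genes are close relatives, and reads may be split between them. For export, Apob, the chylomicron scaffold, had 17615 and 143912 counts (3.42, 3.40 to 3.44), and Mttp, which loads lipid onto it, had 37866 and 116653 counts (2.01, and below 2 with library totals). Dgat1, an acyltransferase that can also esterify retinol, had 9281 and 38587 counts (2.44, 2.41 to 2.48), a ratio above that of Lrat. Awat2, another acyltransferase, had 101 and 7 counts (-3.46, -4.81 to -2.37).

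Other binding proteins did not follow Rbp2. Of 6 listed, 3 were above 0 and 3 below. Ttr, the plasma partner of RBP4, had 5532 counts in control and 2514 with DSS (-0.75, -0.82 to -0.68). Fabp5, which can carry retinoic acid, had 2197 and 1761 counts, a ratio of 0.07 whose interval (-0.02 to 0.16) held 0. Rbp4, the plasma retinol carrier, had 343 and 1027 counts (1.97, 1.79 to 2.15). Crabp1 and Rlbp1 were not analysed here.

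Among 19 listed genes that interconvert retinol and retinal, 16 were above 0 and 9 at 2 or more. Over all genes with at least 10 counts in a library these shares were 48.0% and 7.87%. Of the 9, Rdh12, Rdh16 and Rdh19 had fewer than 10 counts in control. They met the count minimum only through the DSS library, where they were high. The alcohol dehydrogenase Adh1 had 19348 counts in control and 72404 with DSS (2.29, 2.27 to 2.32). Its relatives Adh4 (349 and 1653 counts) and Adh7 (31 and 204) had ratios of 2.63 and 3.11. Adh5, which oxidises glutathione-bound formaldehyde, had 11145 and 5038 counts (-0.76, -0.81 to -0.71).

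Of 6 retinol dehydrogenases past 2, 4 (Rdh9, Rdh16, Rdh16f2 and Rdh19) share 50-base words with Rdh7, and their counts share its uncertainty. Rdh9 had 127 counts in control and 1318 with DSS (3.76, 3.50 to 4.04). Rdh16f2 had 26 and 487 counts (4.62, 4.05 to 5.24), and Rdh16 had 6 and 59 (3.69, 2.48 to 5.19). Rdh5, which is known from the eye, had 259 and 876 counts (2.15), and Rdh12 had 8 and 61 (3.32). Rdh11, which prefers to reduce retinal and had the most counts of the family in control, had 8509 and 8327 counts and a ratio of 0.36 (0.31 to 0.40). Rdh7 went from 0.285 to 1.81 counts per count of Rdh11, a 6.34-fold difference (6.02 to 6.69).

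Genes on the receiving side of retinoic acid did not all share the higher level. Of 5 listed receptor genes, Rxra (7413 and 8160 counts; 0.53, 0.48 to 0.57) and Ppard (2250 and 2623; 0.61, 0.53 to 0.69) were above 0, and Rxrb (2983 and 1291; -0.82, -0.92 to -0.73), Rara (-0.22) and Rarg (-0.38) were below. Of 12 genes that retinoic acid is known to induce, 3 were listed, 1 above 0 and 2 below. Tgm2, a transglutaminase, had 6285 counts in control and 2335 with DSS (-1.04, -1.11 to -0.97), and Rai14 had 2230 and 993 (-0.78, -0.89 to -0.67). The 3 enzymes that break down retinoic acid, Cyp26a1, Cyp26b1 and Cyp26c1, and the receptor Rarb were not analysed here, so the usual readouts of retinoic acid signalling are not part of these values.

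With library totals in place of TMM every log2 ratio was 0.26 lower, and the median of all genes moved by -0.26. Of the genes past 2 in either direction, 54.6% were higher with DSS under TMM and 41.7% under totals. The 8 retinoid handling genes stayed above 0 under this scaling, with Bco1 at 4.14 and Dhrs3 at 0.85.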

How the data were processed

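mRNA-seq was performed on 1 control and 1 DSS-treated organoid culture. The deposited values are unnormalised counts of reads for each gene. The single-sample files hold the same counts for all 19294 genes. The submitters' processing notes name HISAT2 and StringTie. The genome build and the strand setting are not given in the sources used here. The lowest count listed was 1 in either library. Counts were scaled with TMM in edgeR 4.0.16 (R 4.3.3). Log2 ratios with exact Clopper-Pearson 95% intervals, which cover counting error only, were computed in Python 3.11.15 and tested on simulated data. The simulated counts held counting error only and used the same scaled library sizes. They therefore tested neither the scaling nor variation between cultures. With 1 library per group, no p-value or SD is given. The line of 2 on the log2 scale and a minimum of 10 counts in a library were used. An analysis planned on FPKM values was not run, since the files hold counts.

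The genes and lists were chosen with earlier results of these data known. Named genes were the 8, every further retinoid gene with at least 50 counts and a log2 ratio of 2 or more or -2 or less, the 3 most abundant of each role, and paralogs of Rdh7 and Aldh1a1; a few others were added after their values were seen, and some genes under this rule are not reported here. Gene positions, exon lengths and shared 50-base words came from GENCODE vM21 (GRCm38), and promoters from RefSeq (GRCm38.p6). The alternatives tried were library totals, upper quartile factors and size factors from DESeq2 1.42.0, centring on the median, a prior count of 2, thinning, other count minimums and sums over paralogs.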

Additional observations from a re-analysis of the deposited data

How the results depend on the processing

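No paired analysis was possible because each group had 1 library. Of 107 alternative values 86 were called the same, 21 were called moved and none changed sign. Ratios and medians were judged against counting intervals, and all 21 moved values were of this kind. Numbers of genes were judged by a fixed fold limit instead, and all were called the same. Among them, the wider retinoid genes at 2 or more numbered 16 under TMM, 13 with library totals and 19 with upper quartile factors. All 48 of 48 values of the retinoid handling genes were above 0. The number of these genes at a log2 ratio of 2 or more was 4 under every alternative run, and the number at -2 or less was 0. These results were largely fixed in advance. Scaling and centring shift every ratio by a constant, and the largest shift, with library totals, lowers each by 0.26. The lowest ratio of the 8 genes was 1.10, and none lay between 1.51 and 3.02. With total counts, which lowers every ratio by a constant, the median of the 8 genes was 2.01, that of the wider retinoid genes 1.04 and that of the 3 retinoic acid responsive genes -1.03. With at least 50 counts in a library, which leaves out Crabp2, the median of the remaining 7 genes was 3.02. Without a count minimum, which adds Aldh1a3, the median of the wider list over 48 genes was 1.12. Depth limits Crabp2 alone among the 8, and the lack of replicate cultures limits every ratio. The sum with all word-sharing genes for Rdh7 was chosen after seeing the data.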
